A study of Mus musculus with 20 samples.

Results

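The proteasome genes described here are all listed genes whose symbol begins with Psm, then a letter between a and g, then a digit, except Psmb8, Psmb9 and pseudogenes. The rule found 48 of the 17880 genes listed for mouse frontal cortex or hippocampus, and each of the 48 was listed for both regions. By prefix and known role they comprise 8 genes of the alpha ring (Psma), 9 of the beta ring (Psmb), 6 of the ATPase ring (Psmc) and 11 other subunits of the regulatory particle (Psmd). A further 3 Psmd genes encode chaperones that assemble the regulatory particle, 4 Psmg genes encode chaperones of the core particle, 5 Psme genes encode activators, and Psmf1 encodes an inhibitor. The remaining gene, Psmc3ip, is caught by its name and encodes a protein of meiotic recombination, not a subunit.

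The study compared Ncs1-/- mice with wild-type (Ncs1+/+) mice in both brain regions. The deleted gene encodes a calcium-sensing protein that is abundant in neurons. There were 5 libraries each of Ncs1-/- hippocampus, wild-type hippocampus, Ncs1-/- frontal cortex and wild-type frontal cortex. All mice had the C57Bl6/J background, and total RNA came from dissected, flash-frozen tissue.

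The proteasome is the barrel-shaped protease that degrades most ubiquitin-tagged proteins of a cell. Its core particle stacks rings of alpha subunits, which gate the entrance, on rings of beta subunits, of which Psmb5, Psmb6 and Psmb7 carry the catalytic sites. The regulatory particle binds ubiquitin chains, removes them and unfolds the substrate with a ring of ATPases, and in neurons proteasome activity is known to take part in the turnover of synaptic proteins. Its subunits are needed in fixed proportions, and several transcription factors, among them Nfe2l1, are known to act on many proteasome genes together.

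Depth ranged between 16.6 M and 34.6 M counts per library, with a median of 21.0 M. Levels are given as CPM, counts scaled to library size with TMM factors over all 20 libraries, and differences as log2 fold changes from edgeR with their standard error (SE). Ncs1, which checks the genotype labels, was at 255 to 265 CPM in Ncs1-/- cortex against 351 to 387 CPM in wild-type cortex, and at 279 to 329 CPM in Ncs1-/- hippocampus against 427 to 471 CPM in wild-type hippocampus. Ncs1 thus fell by 31.5% in Ncs1-/- hippocampus and by 29.5% in Ncs1-/- cortex, and counts per gene do not show which part of the transcript was left. Markers fitted the region labels: 8 hippocampal subfield markers summed to 669 to 1047 CPM in hippocampus libraries and 135 to 197 CPM in cortex libraries, and 7 cortical layer markers to 282 to 353 CPM in Ncs1-/- hippocampus, 306 to 356 CPM in wild-type hippocampus and 692 to 818 CPM in cortex libraries. Ttr, a marker of choroid plexus, exceeded 100 CPM in 3 hippocampus libraries (Ncs1-/- replicates 2 and 4 and wild-type replicate 4). In cortex, choroid plexus markers summed to 252 CPM in Ncs1-/- replicate 1, the highest library of its group for 26 proteasome genes, and to 5.21 to 14.3 CPM in the other 9 libraries. Striatal neuron markers, 8 genes, summed to 873 to 1600 CPM in Ncs1-/- cortex and 787 to 1347 CPM in wild-type cortex, against at most 218 CPM in hippocampus libraries. The labels do not say whether the 5 libraries of a group are 5 different mice. The p-values therefore reflect only how much these libraries differ, part of which may be technical. In tissue RNA, fewer cells of a type and less RNA per cell cannot be told apart.

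One library stood furthest apart for the proteasome genes. Ncs1-/- hippocampus replicate 1 had the highest level of its group for 34 of the 46 proteasome genes that were tested, and its 48 genes summed to 2666 CPM, against 2322 to 2425 CPM in the other 4 libraries of the group. Its log2 levels, relative to each gene's mean, also had the most negative correlation with exonic length across all genes. Pearson r was -0.29, and the next was -0.27 in wild-type hippocampus replicate 1. Proteasome genes are short, with a median exonic length of 1409 bases (longest principal transcript) against 3088 bases over all genes tested in cortex. Summaries of the comparisons that use this library are therefore given with and without it, and the part of transcript length in it was not tested beyond the alternative fit given below. In wild-type cortex, replicate 5 was the lowest library of its group for 23 of the tested proteasome genes. Its r with exonic length was 0.14, against -0.077 to -0.0056 in the other wild-type cortex libraries.

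Per transcript length, most subunit genes were among the abundant mRNAs of both regions. Levels per length are given as TPM, which divide counts by GENCODE exonic length before scaling to library size. Psmc5, an ATPase, was highest at a mean of 233 TPM over the 20 libraries, followed by Psmb7, the trypsin-like catalytic subunit, and Psmc1, another ATPase, both at 207 TPM. With the union of all exons as length, Psmc5 and Psmc1 kept their ranks of 1 and 3, Psma6 stood at rank 2 and Psmb7 at rank 16, so the order within the complex depends on the transcript model. Psmc5 lay above 95.1% of all listed genes with a length.

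Within a ring, mRNA levels per length differed although the subunits enter the ring in equal numbers. The ranges given here use principal-transcript lengths and were not computed with the union of all exons. That union is 2300 bases for Psmb3, against 766, and 899 by both for Psmb5, so the order of the rings can change. By principal transcripts, the 7 beta-ring genes other than Psmb10 and Psmb11 were closest together. They lay between 103 TPM (Psmb3, a structural subunit) and 207 TPM (Psmb7), a 2.005-fold range. The 6 ATPase genes spanned 93.6 TPM (Psmc6) to 233 TPM (Psmc5), a 2.48-fold range. The 7 alpha-ring genes other than Psma8 spanned 45.8 TPM (Psma3) to 202 TPM (Psma6), a 4.42-fold range, and the 11 other regulatory subunits 41.3 TPM (Psmd11, a lid subunit) to 179 TPM (Psmd2, a large scaffold subunit), a 4.35-fold range. The assembly chaperones were lower than the subunits they serve: Psmg1 to Psmg4 averaged 12.8 TPM (Psmg4) to 33.7 TPM (Psmg2), and Psmd5, Psmd9 and Psmd10 averaged 23.7 TPM (Psmd9) to 29.2 TPM (Psmd5).

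**Figure D1:**
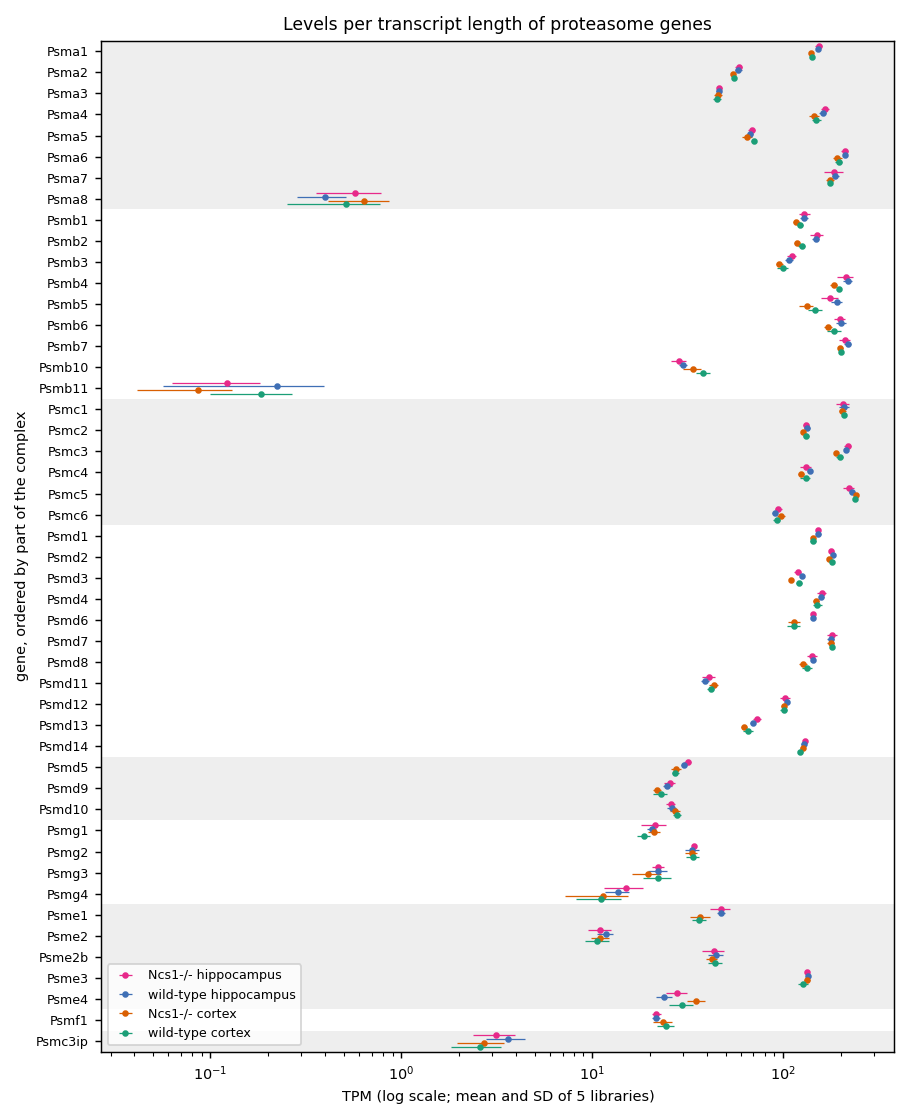
Level per transcript length of the 48 proteasome genes (TPM, log axis). Points are means and bars the SD of 5 libraries, with Ncs1-/- above wild type in each region and shading by part of the complex. Subunit genes lie mostly between 41.3 TPM (Psmd11) and 233 TPM (Psmc5), with assembly chaperones lower and Psma8 at most 1.02 TPM and Psmb11 at most 0.407 TPM in any library.

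Members restricted to other tissues were near the floor. Psma8, the alpha subunit of testis proteasomes, was at 0.167 to 0.427 CPM in Ncs1-/- hippocampus, 0.145 to 0.281 CPM in wild-type hippocampus, 0.210 to 0.513 CPM in Ncs1-/- cortex and 0.104 to 0.394 CPM in wild-type cortex. Psmb11, the beta subunit of the thymoproteasome, was at 0.0389 to 0.532 CPM over the hippocampus libraries and 0.0525 to 0.394 CPM over the cortex libraries. Both were left out of the tests by the filter on low counts, and the other 46 genes were tested. Psmc3ip, at 0.754 to 1.98 CPM over the 20 libraries, was the lowest gene that was tested.

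The inducible catalytic subunit Psmb10 can replace Psmb7 in the beta ring. Per length it was at 13.5 ± 1.10% of Psmb7 in Ncs1-/- hippocampus and 13.8 ± 0.234% in wild-type hippocampus, and at 16.8 ± 1.45% in Ncs1-/- cortex and 19.1 ± 1.32% in wild-type cortex (SD, n = 5 each). Without Ncs1-/- hippocampus replicate 1 that group averaged 13.4 ± 1.27% (SD, n = 4). All 10 hippocampus libraries had a ratio of at most 15.3%, and the lowest Ncs1-/- cortex library, at 14.4%, lay among them. The Ncs1-/- cortex libraries also overlapped the wild-type cortex libraries, which were at 17.6% to 20.8%. Among activators, Psme3, the nuclear ring activator, was the most abundant at 132 TPM, and its level was 2.87 ± 0.355 times that of Psme1 in Ncs1-/- hippocampus, 2.84 ± 0.183 times in wild-type hippocampus, 3.67 ± 0.459 times in Ncs1-/- cortex and 3.53 ± 0.431 times in wild-type cortex (SD, n = 5 each). Without replicate 1, the Psme3 to Psme1 ratio in Ncs1-/- hippocampus was 2.99 ± 0.263 (SD, n = 4). Both ratios use principal-transcript lengths. By the union of all exons, Psmb7 has 3421 bases against 1160, and Psmb10 has 1705 against 1311. Psme1 then has 2209 bases against 1112, and Psme3 has 2949 against 2664. The size of each ratio thus depends on the transcript model, while the length factor is the same in every library. Psme4, a single-chain activator known for its role in the nucleus and in male germ cells, averaged 29.1 TPM, and the inhibitor Psmf1 22.7 TPM.

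The first comparison asked which proteasome genes differ between genotypes in frontal cortex. In Ncs1-/- cortex most of them were slightly lower than in wild-type cortex, and 0 of 46 passed an adjusted p of 0.05 (edgeR quasi-likelihood test with Benjamini-Hochberg adjustment over 14823 genes, of which 0.027% passed). Log2 fold changes were negative for 38 genes and positive for 8, with a median of -0.058 for the proteasome genes, against 0.0019 over all genes tested, of which 49.4% were lower. At an unadjusted p under 0.05 there were 11 proteasome genes lower, where 6.75% of all genes were, and 1 higher, where 8.08% of all genes were. limma-voom also called 0 of them, and DESeq2 called 1, Psmd3, in a fit that called 82 genes higher and 87 lower of 14823. Without wild-type cortex replicate 5, 39 proteasome genes were lower and 7 higher, with a median of -0.079. In that fit 13 were lower and 1 higher at an unadjusted edgeR p under 0.05, among 3477 of 14915 genes. Without Ncs1-/- cortex replicate 1, 37 were lower and 9 higher, with a median of -0.083.

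Psmd3, a lid subunit of the regulatory particle (chr11:98682554-98695978, RefSeq on GRCm38.p6), had the smallest p of the members. It was at 70.9, 71.4, 69.3, 71.5 and 70.5 CPM in Ncs1-/- cortex, against 84.5, 80.3, 79.8, 77.8 and 75.7 CPM in wild-type cortex. Every Ncs1-/- library lay below every wild-type library. The log2 fold change was -0.17 (SE 0.04), a percent difference of -11.0, with an unadjusted p of 0.000597 and an adjusted p of 0.190 by edgeR. DESeq2 gave it an adjusted p of 0.0125. Without wild-type cortex replicate 5, edgeR called Psmd3 (log2 fold change -0.19, adjusted p 0.0291) and Psme4 (0.30, adjusted p 0.0451). That fit called 391 genes higher and 172 lower of the 14915 tested, so calls were also more frequent over all genes.

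Psmd2, which binds ubiquitin receptors and shuttle factors, was the other gene whose groups did not overlap, at 153 to 157 CPM in Ncs1-/- cortex against 161 to 167 CPM in wild-type cortex (log2 fold change -0.083, SE 0.03, edgeR adjusted p 0.266). Both of these genes were lower, and 1.21% of all genes had Ncs1-/- cortex libraries below every wild-type library. Psmb4, a structural beta subunit, was at 70.1, 63.9, 65.2, 61.9 and 66.0 CPM in Ncs1-/- cortex, against 72.4, 72.2, 73.4, 71.7 and 67.6 CPM in wild-type cortex. One Ncs1-/- library, replicate 1, lay within the wild-type range (log2 fold change -0.13, SE 0.04, edgeR adjusted p 0.243).

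By part, the beta ring had the lowest median. All 8 tested beta-ring genes had negative log2 fold changes in cortex (median -0.12), 5 of them with an unadjusted p under 0.05. Psmb5, the chymotrypsin-like catalytic subunit, was at 39.5, 33.1, 31.7, 36.5 and 38.0 CPM in Ncs1-/- cortex, against 43.0, 40.0, 42.7, 42.8 and 34.4 CPM in wild-type cortex. The groups overlapped through wild-type replicate 5, which was lower than 3 of the 5 Ncs1-/- libraries (log2 fold change -0.18, SE 0.07, edgeR adjusted p 0.288). Psmb10 had the most negative log2 fold change of the 46 genes, at -0.23 (SE 0.09, edgeR adjusted p 0.282), with 10.8 to 14.3 CPM in Ncs1-/- cortex against 13.5 to 16.9 CPM in wild-type cortex. Psmb6, the caspase-like subunit, had a log2 fold change of -0.13 (SE 0.06, edgeR adjusted p 0.316), and Psmb7 one of -0.035 (SE 0.04, edgeR adjusted p 0.689).

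The other parts of the complex leaned the same way with smaller medians. The alpha ring was lower for 7 of 7 tested genes (median log2 fold change -0.055, 1 with an unadjusted p under 0.05, Psma5). The ATPase ring was lower for 5 of 6 (median -0.079, 3 with an unadjusted p under 0.05, Psmc2, Psmc3 and Psmc4), the other regulatory subunits for 9 of 11 (median -0.045) and the regulatory-particle chaperones for 3 of 3 (median -0.078). Of the core-particle chaperones, Psmg1 had a log2 fold change of 0.15 (SE 0.09), Psmg2 -0.058 (SE 0.08), Psmg3 -0.21 (SE 0.14) and Psmg4 -0.038 (SE 0.26), and none had an unadjusted p under 0.05. Psmf1 stood at -0.088 (SE 0.09) and Psmc3ip at 0.017 (SE 0.26).

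Psme4 went against most of the rest. It was at 57.5, 71.9, 76.1, 66.6 and 69.5 CPM in Ncs1-/- cortex, against 53.1, 61.0, 57.0, 51.3 and 71.2 CPM in wild-type cortex. Wild-type replicate 5, at 71.2 CPM, lay among the Ncs1-/- libraries, and the other 4 wild-type libraries were at 61.0 CPM or lower. The log2 fold change was 0.22 (SE 0.09, edgeR adjusted p 0.287), and 0.16 to 0.30 over 20 alternative fits. Psme4 also has the longest exonic length of the family, 6491 bases, and cortex log2 fold changes went up with length, as given below. The part of length in its value was not tested. Of the other activators, Psme1 stood at -0.018 (SE 0.09), Psme2 at 0.022 (SE 0.14), Psme2b at -0.095 (SE 0.08) and Psme3 at 0.033 (SE 0.04) on the log2 fold scale, and none had an unadjusted p under 0.05.

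Several measures moved with genotype in cortex beside these genes. Across the 46 proteasome genes the cortex log2 fold change went with exonic length (Pearson r 0.36, a description over genes, which share their libraries), as it did over 14558 tested genes with a length (r 0.24). With each library's relation to exonic length taken out, 26 genes were lower and 20 higher, the median was -0.018, and the beta ring was lower for 7 of 8 genes (median -0.054), the ATPase ring for 4 of 6 (median -0.033) and the regulatory-particle chaperones for 3 of 3 (median -0.041). The alpha ring was then lower for 4 of 7 (median -0.0051), the other regulatory subunits for 5 of 11 (median 0.0055) and the core-particle chaperones for 1 of 4 (median 0.027). Astrocyte markers were lower in Ncs1-/- cortex for 7 of 7 genes, summing to 1741 to 1828 CPM against 1768 to 2127 CPM in wild-type cortex, and striatal neuron markers were higher for 8 of 8. Neuron markers were lower for 6 of 7 (median log2 fold change -0.078), microglia markers for 6 of 7 (median -0.096), and meningeal fibroblast markers were higher for 6 of 7 (median 0.21). Oligodendrocyte markers were higher for 6 of 7 (median 0.027) and the choroid plexus markers tested for 3 of 3 (median 0.93). No marker of these lists was called, and none was at 0 in every library of a group. The part of these cell-type differences in the proteasome values was not tested.

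**Figure D2:**
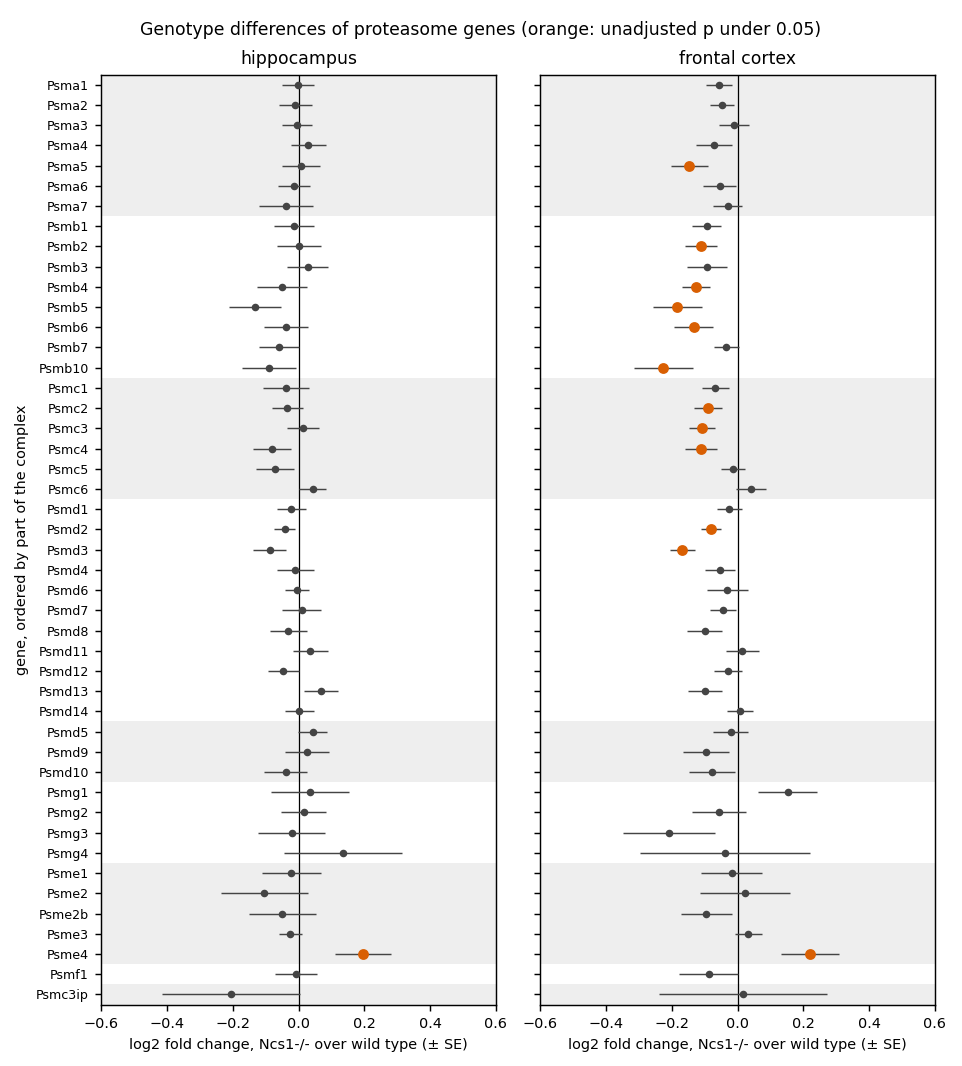
Log2 fold change of 46 proteasome genes in Ncs1-/- over wild type, in hippocampus (left) and frontal cortex (right). Points are edgeR estimates, bars ± 1 SE, and orange points had an unadjusted p under 0.05. In cortex 38 of 46 points lie left of 0, including all 8 beta-ring genes, and Psme4 lies right of 0 in both regions.

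The same comparison in hippocampus also called 0 of 46 proteasome genes (edgeR with Benjamini-Hochberg adjustment over 15042 genes, of which 0.0266% passed), and DESeq2 and limma-voom called 0. Log2 fold changes were negative for 30 genes and positive for 16, with a median of -0.013, against 0.0070 over all genes tested, of which 46.9% were lower. Only Psme4 had an unadjusted p under 0.05, where 3.78% of all genes did. It was at 45.8, 53.0, 59.6, 57.8 and 59.0 CPM in Ncs1-/- hippocampus, against 42.7, 45.5, 48.6, 53.3 and 51.5 CPM in wild-type hippocampus. The groups overlapped, with 3 Ncs1-/- libraries above every wild-type library (log2 fold change 0.20, SE 0.08, unadjusted p 0.0379, edgeR adjusted p 0.991).

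Psmd3 and Psmb5 had the next smallest p-values in hippocampus. Psmd3 was at 85.7, 82.2, 72.9, 76.6 and 74.9 CPM in Ncs1-/- hippocampus, against 82.6, 82.8, 89.7, 82.9 and 81.6 CPM in wild-type hippocampus (log2 fold change -0.088, SE 0.05, edgeR adjusted p 0.991). Psmb5 was at 58.7, 46.1, 44.9, 49.1 and 43.8 CPM in Ncs1-/- hippocampus, against 52.4, 54.4, 60.3, 50.9 and 49.8 CPM in wild-type hippocampus (log2 fold change -0.13, SE 0.08, edgeR adjusted p 0.991). For both genes 3 or 4 Ncs1-/- libraries lay below every wild-type library, and replicate 1 lay inside the wild-type range.

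The hippocampal pattern depended on that library. Without Ncs1-/- hippocampus replicate 1, 41 of 46 log2 fold changes were negative and 5 positive, with a median of -0.060, the beta ring was lower for 8 of 8 genes (median -0.11), the alpha ring for 7 of 7 (median -0.051) and the ATPase ring for 5 of 6 (median -0.089). In that fit 7 proteasome genes were lower and 1 higher at an unadjusted p under 0.05, among 2098 of 15113 genes, and 0 were called. Psmb5 was then at -0.22 (SE 0.06), Psmd3 at -0.13 (SE 0.05) and Psme4 at 0.25 (SE 0.06), each with an edgeR adjusted p of 0.324. With all 5 libraries, the beta ring was lower for 6 of 8 genes (median -0.045). Leaving out replicate 3 in its place gave 25 positive and 21 negative values and a median of 0.00039, and removing the exonic-length trend from all libraries gave 24 positive and 22 negative values. Astrocyte markers were lower for 7 of 7 genes in Ncs1-/- hippocampus too, with sums of 2071 to 2176 CPM against 2134 to 2399 CPM in wild-type hippocampus. Microglia markers were lower for 6 of 7 and neuron markers for 5 of 7. Oligodendrocyte markers were higher for 7 of 7 (median log2 fold change 0.057) and the choroid plexus markers tested for 6 of 6 (median 0.72). No marker of these lists was called, and the part of these differences in the proteasome values was not tested.

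The genotype comparisons of the 2 regions share no library, but the labels do not say whether they share mice. Of the 46 proteasome genes, 27 were lower in Ncs1-/- tissue of both regions and 5 were higher in both, which is 58.7% and 10.9%, against 34.0% and 37.1% of all genes tested in both regions. With replicate 1 of Ncs1-/- hippocampus left out, 36 were lower in both and 3 higher in both, which is 78.3% and 6.52%, against 37.4% and 36.7% of 14639 genes. The Pearson correlation of the log2 fold changes of both comparisons was 0.41 over the 46 genes and 0.47 over all 14613 genes, a description over genes that share libraries and, within a region, a lane. Without replicate 1 it was 0.45 over the 46 genes and 0.53 over 14639 genes. With the exonic-length trend removed and all libraries kept, 26 of 46 were lower in cortex and 22 in hippocampus. The number lower in both was not computed for that fit. Psme4 was among the 5 genes higher in both with all libraries, at 0.20 in hippocampus and 0.22 in cortex.

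Whether the genotype difference differed between regions was tested with an interaction term over the 20 libraries. It called 0 of 46 proteasome genes and 0 of 15310 genes in all (edgeR), so 0% passed. At an unadjusted p under 0.05 there was 1 proteasome gene, Psmd13, and 1.4% of all genes. limma-voom called 0 genes in all and DESeq2 1, which is no proteasome gene. Psmd13, a lid subunit, had a difference of log2 fold changes, hippocampus minus cortex, of 0.16 (SE 0.07, unadjusted p 0.0415, edgeR adjusted p 0.9998). It was at 42.5 to 50.1 CPM in Ncs1-/- hippocampus against 40.4 to 45.3 CPM in wild-type hippocampus, and at 35.1 to 39.2 CPM in Ncs1-/- cortex against 36.7 to 43.3 CPM in wild-type cortex, so the groups overlapped in both regions. Without Ncs1-/- hippocampus replicate 1 its value was 0.12 (SE 0.07, unadjusted p 0.0898). The median interaction value over the 46 genes was 0.038, and 0.0055 without Ncs1-/- hippocampus replicate 1.

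The second question of the design was how the regions differ. The libraries of the 2 regions carry different lane tags in their labels, so lane and region cannot be told apart. In wild-type mice, 10 of 46 proteasome genes passed an adjusted p of 0.05 between hippocampus and cortex (edgeR with Benjamini-Hochberg adjustment over 14849 genes), 8 higher and 2 lower in hippocampus, where 39.5% of all genes passed, 18.8% higher and 20.7% lower. The share called was thus below that of all genes. The log2 fold changes were small and mostly positive, for 36 of 46 genes, with a median of 0.082, against 0.0071 over all genes tested.

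In Ncs1-/- mice, 18 of 46 passed, 17 higher and 1 lower in hippocampus (edgeR with Benjamini-Hochberg adjustment over 15032 genes), where 38.8% of all genes passed, 19.2% higher and 19.6% lower. The share called was near that of all genes, while 17 of the 18 were higher. The 17 higher calls became 11 without Ncs1-/- cortex replicate 2, 12 without replicate 3, and 11 without the libraries high in Ttr. Over all genes the higher calls were then 2480 of 15223, 2501 of 15203 and 2266 of 15099. Log2 fold changes were positive for 39 genes, with a median of 0.11, against 0.013 over all genes tested. With replicate 1 of Ncs1-/- hippocampus left out, 16 genes were called higher and 2 lower, with a median of 0.080. That fit called 2986 of 15012 genes higher and 2882 lower. Removing the exonic-length trend gave 13 higher and 3 lower, with a median of 0.042, where 3123 of 15032 genes were higher and 3027 lower. In wild type it gave 6 higher and 4 lower, with a median of 0.041, where 2960 of 14849 genes were higher and 3052 lower.

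Cell-type markers also differed between regions. Neuron markers were lower in hippocampus for 6 of 7 genes in each genotype (median log2 fold change -0.22 in Ncs1-/- mice, 5 called, and -0.24 in wild type, 6 called), and oligodendrocyte markers were higher for 7 of 7 (medians 0.28 and 0.22, 3 called in each). Astrocyte markers were higher for 5 of 7 (medians 0.094 and 0.086), and the choroid plexus markers tested were higher for 6 of 6 in Ncs1-/- mice (median 3.24) and 3 of 3 in wild type (median 3.86). Neuron markers summed to 7940 to 8705 CPM in Ncs1-/- hippocampus and 8257 to 9012 CPM in wild-type hippocampus, against 9381 to 9927 CPM in Ncs1-/- cortex and 9630 to 10865 CPM in wild-type cortex. No marker of these lists was at 0 in every library of a group, and their part in the region differences of the proteasome genes was not tested.

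Psmb5, Psme1, Psmd6 and Psmb2 had the 4 highest log2 fold changes among the called genes of each genotype. Psmb5 was at 58.7, 46.1, 44.9, 49.1 and 43.8 CPM in Ncs1-/- hippocampus and 52.4, 54.4, 60.3, 50.9 and 49.8 CPM in wild-type hippocampus, against at most 39.5 CPM in Ncs1-/- cortex and 43.0 CPM in wild-type cortex. Within each genotype every hippocampus library lay above every cortex library. The log2 fold change was 0.44 in Ncs1-/- mice (SE 0.09, edgeR adjusted p 0.00129) and 0.38 in wild type (SE 0.07, edgeR adjusted p 0.000711).

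Psmd6, a lid subunit, was at 63.9, 60.5, 60.0, 60.2 and 61.1 CPM in Ncs1-/- hippocampus, against 48.7, 42.7, 50.6, 49.7 and 45.1 CPM in Ncs1-/- cortex. In wild type it was at 59.8, 61.5, 62.4, 62.1 and 62.6 CPM in hippocampus, against 54.3, 44.3, 50.3, 46.5 and 47.1 CPM in cortex. The hippocampus libraries were close together and above every cortex library (log2 fold change 0.36, SE 0.05, edgeR adjusted p 9.4e-05 in Ncs1-/- mice, and 0.33, SE 0.05, edgeR adjusted p 0.000250 in wild type).

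Psme1, the alpha subunit of the interferon-inducible activator, was at 19.6, 17.2, 14.2, 14.3 and 15.0 CPM in Ncs1-/- hippocampus, against 14.7, 11.0, 12.2, 10.8 and 12.6 CPM in Ncs1-/- cortex. In wild type it was at 17.0, 15.97, 15.5, 16.7 and 16.9 CPM in hippocampus, against 13.5, 11.4, 11.8, 13.6 and 11.8 CPM in cortex. The groups overlapped in Ncs1-/- mice through cortex replicate 1 and did not overlap in wild type, and the log2 fold change was 0.39 in both (edgeR adjusted p 0.0141 in Ncs1-/- mice and 0.000578 in wild type). Psmb2, a structural beta subunit, rose by 0.37 in Ncs1-/- mice (SE 0.07, edgeR adjusted p 0.000776), with 37.0 to 46.8 CPM in hippocampus against 29.0 to 31.8 CPM in cortex. In wild type it rose by 0.25 (SE 0.05, edgeR adjusted p 0.000882), with 38.1 to 42.0 CPM in hippocampus against 31.6 to 35.1 CPM in cortex. Without Ncs1-/- hippocampus replicate 1, the log2 fold change in Ncs1-/- mice was 0.37 for Psmb5, 0.36 for Psmd6, 0.32 for Psme1, 0.31 for Psmb2 and 0.22 for Psmd13, and each of these genes was called (edgeR adjusted p 0.000128 for Psmd6 to 0.0239 for Psme1).

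Further genes rose by less. In wild type, Psmd5, a chaperone of the ATPase ring, rose by 0.16 (SE 0.05, edgeR adjusted p 0.0135), Psmb4 by 0.15 (SE 0.05, edgeR adjusted p 0.0181), Psmb7 by 0.13 (edgeR adjusted p 0.0315) and Psma1 by 0.11 (edgeR adjusted p 0.0361). The call of Psmb7 in wild type was lost when any of 4 libraries was left out (cortex replicate 2 or 5, hippocampus replicate 1 or 3, adjusted p 0.0630 to 0.0760). Psmb6 was not called in wild type (0.13, edgeR adjusted p 0.133) and was called there without cortex replicate 1 (0.18, edgeR adjusted p 0.0335). In Ncs1-/- mice, Psmd13 rose by 0.25 (SE 0.06, edgeR adjusted p 0.00286) and Psmd9, another regulatory-particle chaperone, by 0.24 (SE 0.07, edgeR adjusted p 0.0136). The call of Psmd9 was lost without the libraries high in Ttr (log2 fold change 0.22, adjusted p 0.0522). The other genes that rose in Ncs1-/- mice were Psma1, Psma4, Psma6, Psmb1, Psmb3, Psmb4, Psmb6, Psmc3, Psmd3, Psmd5 and Psmd8, between 0.14 (Psmd3) and 0.24 (Psmb3). Hippocampus libraries lay above every cortex library for 15 proteasome genes in Ncs1-/- mice and for 11 in wild type, and for 15.1% of all genes in each genotype.

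**Figure D3:**
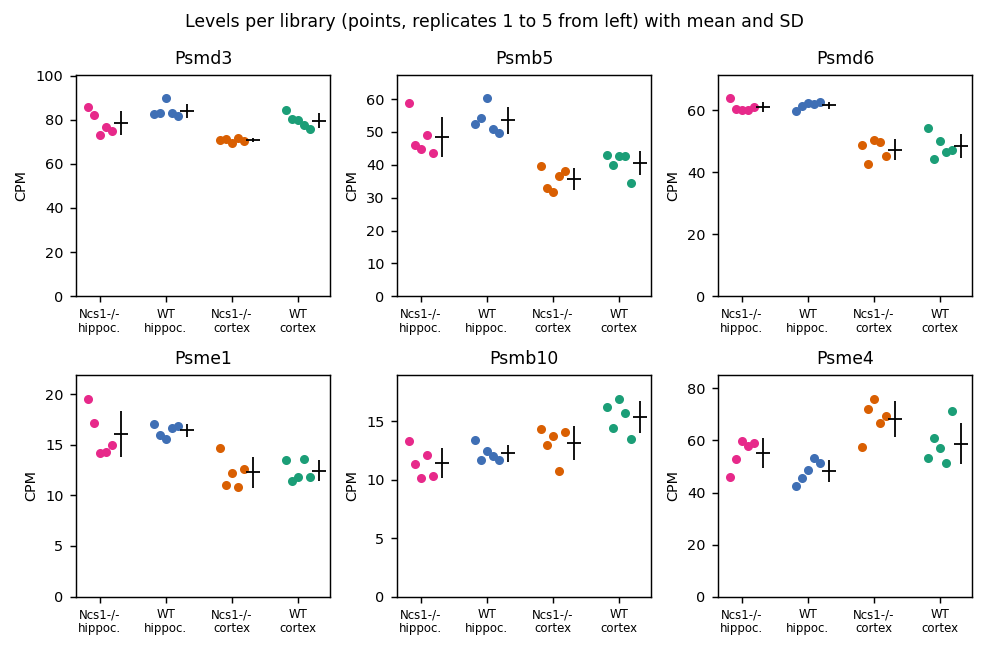
CPM of 6 proteasome genes in each of the 20 libraries, with Ncs1-/- and wild-type hippocampus left of Ncs1-/- and wild-type cortex. Points are replicates 1 to 5 and crosses the mean and SD of 5 libraries, on axes that start at 0. Psmd3 shows Ncs1-/- cortex, at 69.3 to 71.5 CPM, below all other libraries, and Psmd6 shows all hippocampus libraries at or above 59.8 CPM.

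Psmb10 and Psme4 ran the other way. Psme4 was lower in hippocampus in both genotypes, at 45.8 to 59.6 CPM in Ncs1-/- hippocampus against 57.5 to 76.1 CPM in Ncs1-/- cortex (log2 fold change -0.32, SE 0.08, edgeR adjusted p 0.00871), and at 42.7 to 53.3 CPM in wild-type hippocampus against 51.3 to 71.2 CPM in wild-type cortex (-0.30, SE 0.09, edgeR adjusted p 0.0165). The groups overlapped in both genotypes. With replicate 1 of Ncs1-/- hippocampus left out, Psme4 was at -0.25 in Ncs1-/- mice (edgeR adjusted p 0.0150) and Psmb10 at -0.26 (edgeR adjusted p 0.0512). Psmb10 fell in wild-type hippocampus, at 11.7 to 13.4 CPM against 13.5 to 16.9 CPM in wild-type cortex, with no overlap (-0.35, SE 0.08, edgeR adjusted p 0.00261). In Ncs1-/- mice it was at 13.3, 11.3, 10.1, 12.1 and 10.3 CPM in hippocampus against 14.3, 12.9, 13.8, 10.8 and 14.1 CPM in cortex, with overlap and no call (-0.21, SE 0.10, edgeR adjusted p 0.120), and it was called without Ncs1-/- cortex replicate 4 (-0.27, edgeR adjusted p 0.0399). Whether the region difference of Psmb10 differed between genotypes gave an interaction of 0.13 (SE 0.12, unadjusted p 0.316, edgeR adjusted p 0.9998). The inhibitor Psmf1 had a log2 fold change of -0.084 (SE 0.08) in Ncs1-/- mice and -0.17 (SE 0.08) in wild type, with edgeR adjusted p-values of 0.459 and 0.0981, and it was called in wild type without cortex replicate 5 (-0.23, edgeR adjusted p 0.0127).

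By part, the beta ring had the highest median among the rings, 0.23 in Ncs1-/- mice and 0.13 in wild type, with 6 of 8 tested genes called higher and 0 lower in Ncs1-/- mice, and 4 higher and 1 lower in wild type. The alpha ring had medians of 0.13 in Ncs1-/- mice (3 of 7 called higher) and 0.098 in wild type (1 called higher). The ATPase ring had medians of 0.062 and 0.015, with 1 of 6 called higher in Ncs1-/- mice (Psmc3) and 0 in wild type. The other regulatory subunits had medians of 0.11 (4 of 11 called higher) in Ncs1-/- mice and 0.064 (1 called higher) in wild type. Of the 4 Psmg chaperones 0 were called in either genotype. With replicate 1 of Ncs1-/- hippocampus left out, the medians in Ncs1-/- mice were 0.17 for the beta ring (5 called higher), 0.10 for the alpha ring (2 called higher), 0.031 for the ATPase ring (1 called higher and 1 lower) and 0.081 for the other regulatory subunits (5 called higher). Removing the exonic-length trend, with all libraries kept, gave beta-ring medians of 0.16 in Ncs1-/- mice and 0.098 in wild type. Alpha-ring medians were then 0.083 and 0.061, and those of the other regulatory subunits 0.043 and 0.012. The ATPase ring turned negative, at -0.013 (lower for 3 of 6 genes) and -0.041 (lower for 4 of 6).

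The region comparisons of both genotypes share no library. Between them 8 proteasome genes were called in both, which is 44.4% of the 18 calls in Ncs1-/- mice and 80.0% of the 10 calls in wild type, against 81.8% and 81.5% of the calls over all genes. The sign was the same for 43 of 46 proteasome genes, against 87.4% of 14784 genes. The correlation of both sets of log2 fold changes over the 46 genes was 0.87, and 0.95 over all genes, where the points share the region-specific lanes. Without Ncs1-/- hippocampus replicate 1, 8 genes were again called in both. The sign was then the same for 40 of 46 genes (87.0%), against 86.6% of 14773 genes. The correlation was 0.84 over the 46 genes and 0.95 over all genes. Region log2 fold changes of the 46 genes went down with exonic length (r -0.49 in Ncs1-/- mice and -0.42 in wild type). The correlation was stronger than over all genes (r -0.095 and -0.070), and slopes were not compared.

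**Figure D4:**
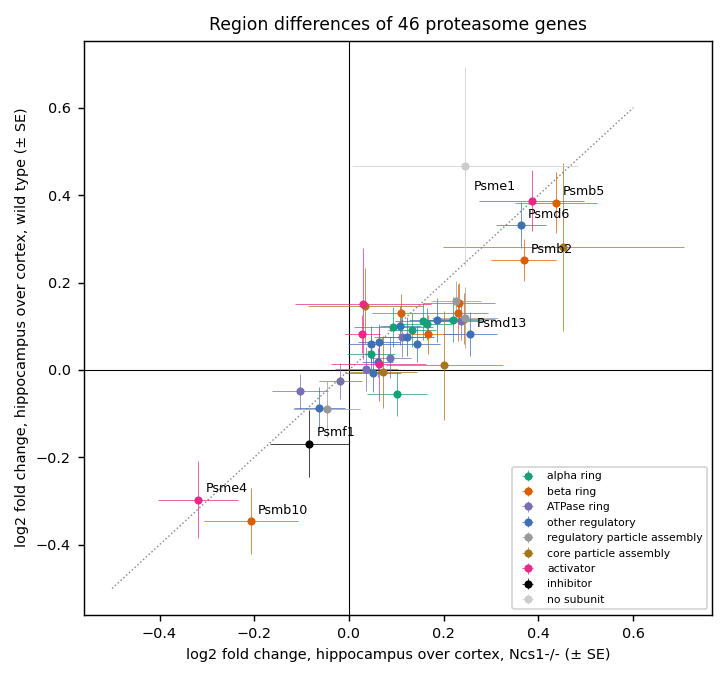
Log2 fold change in hippocampus over cortex of 46 proteasome genes, with Ncs1-/- mice on the horizontal axis and wild type on the vertical axis. Points are edgeR estimates, bars ± 1 SE, colours mark parts of the complex, and the dotted line marks equal values. Psmb5, Psme1, Psmd6 and Psmb2 lie highest among the called genes on both axes, and Psme4 and Psmb10 lie lowest.

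Promoter sequences of the genes with the largest region differences are shown because these genes moved between regions in a shared direction, up for Psmb5, Psmd6 and Psme1 and down for Psmb10 and Psme4. They are the 200 bases before the annotated start of each gene, 5′ to 3′ on the gene's own strand, from RefSeq on GRCm38.p6, in which Psmb5 spans chr14:54614120-54617995, Psmd6 chr14:14112185-14120945, Psme1 chr14:55578494-55581527, Psmb10 chr8:105935728-105938392 and Psme4 chr11:30771775-30881150. Capitals mark matches to TGACNNNGC, the core of the antioxidant response element bound by Nfe2l1 and Nfe2l2, and to CCAAT, the box bound by the Nfy proteins, searched on both strands.
Psmb5 (chr14:54617996-54618195, minus strand): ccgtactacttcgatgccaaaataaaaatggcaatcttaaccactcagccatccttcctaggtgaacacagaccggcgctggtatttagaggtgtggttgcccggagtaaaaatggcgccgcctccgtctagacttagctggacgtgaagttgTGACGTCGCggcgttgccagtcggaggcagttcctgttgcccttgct
Psmd6 (chr14:14120946-14121145, minus strand): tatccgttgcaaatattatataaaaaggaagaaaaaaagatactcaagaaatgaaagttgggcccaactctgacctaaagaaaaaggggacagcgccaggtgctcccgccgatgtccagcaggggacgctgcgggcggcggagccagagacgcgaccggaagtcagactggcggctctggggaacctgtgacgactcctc
Psme1 (chr14:55578294-55578493, plus strand): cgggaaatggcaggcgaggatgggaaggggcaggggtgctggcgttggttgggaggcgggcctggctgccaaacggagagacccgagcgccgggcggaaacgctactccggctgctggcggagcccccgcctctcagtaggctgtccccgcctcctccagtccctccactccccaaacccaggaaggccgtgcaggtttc
Psmb10 (chr8:105938393-105938592, minus strand): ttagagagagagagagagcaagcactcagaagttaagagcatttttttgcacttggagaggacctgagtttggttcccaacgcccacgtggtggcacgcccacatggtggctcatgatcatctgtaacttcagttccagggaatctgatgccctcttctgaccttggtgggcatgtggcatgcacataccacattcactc
Psme4 (chr11:30771575-30771774, plus strand): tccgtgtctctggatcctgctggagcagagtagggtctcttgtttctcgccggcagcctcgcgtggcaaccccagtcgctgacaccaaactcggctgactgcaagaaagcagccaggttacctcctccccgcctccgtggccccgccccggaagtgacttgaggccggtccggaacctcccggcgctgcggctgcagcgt
Of these 5 windows, that of Psmb5 holds a match, TGACGTCGC, at 47 to 39 bases before the start, and the other 4 hold none of either motif.

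Over the family, 40 of the 48 genes had an entry in the promoter table, and Psma8, Psmb1, Psmb2, Psmb7, Psmc3, Psmd3, Psmd7 and Psmg2 had none. In the 250 bases before the start, 5 of the 40 (12.5%) held TGACNNNGC, against 11.5% of 27025 genes. They were Psmb5, Psmb6 (TGACGGAGC, 9 to 1 bases before the start), Psmd9 (TGACCCCGC, 31 to 23 bases before the start), Psmc6 and Psmd12. CCAAT was found for 14 of the 40 (35.0%), against 37.5% of all genes. Among genes with an entry it was found for 5 of 7 in the alpha ring, 2 of 6 in the beta ring and 2 of 5 in the ATPase ring. It was found for 2 of 9 other regulatory subunits, 1 of 3 regulatory-particle chaperones, 0 of 3 core-particle chaperones and 1 of 5 activators. Psmc3ip held it and Psmf1 did not. No gene held both motifs, and a match says only that the letters are present in the window.

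Between libraries of the same group the proteasome genes varied together. After group means were removed, the SD of a log2 level was 0.082 over the 46 genes and 0.14 over all genes. The gene sets were not matched for level, so the lower SD need not be a trait of the family. The median Pearson r of 1035 gene pairs over the 20 libraries was 0.33, with 80.3% of pairs positive, and it was 0.51 for the 496 pairs among ring and other regulatory subunits, against 0.0050 between proteasome genes and all other genes. The pairs share libraries, depth and the relation with length, and without Ncs1-/- hippocampus replicate 1 the median was 0.19 over the 1035 pairs and 0.29 over the 496 pairs. The genes most like the rest were Psma7, with a median r of 0.65 to the other 45, Psmb7 (0.62) and Psmc3 (0.61), the last with an r of 0.91 to Psmd8. Without Ncs1-/- hippocampus replicate 1 these medians were 0.37 for Psma7, 0.39 for Psmb7 and 0.43 for Psmc3, and Psmd8 was highest at 0.45, so the order rests on that library.

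A few members varied apart. Psme4 had a median r of -0.51 with the other 45 genes, negative for 39 of them, and -0.40 without Ncs1-/- hippocampus replicate 1. Psmd11, a lid subunit, had a median r of -0.39, which was -0.14 without that library. Psme4 has an exonic length of 6491 bases, against the family's median of 1409. Psmd2, Psme3, Psmd5 and Psmc6 had medians between -0.035 and 0.058, so their levels followed the other genes little.

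**Figure D5:**
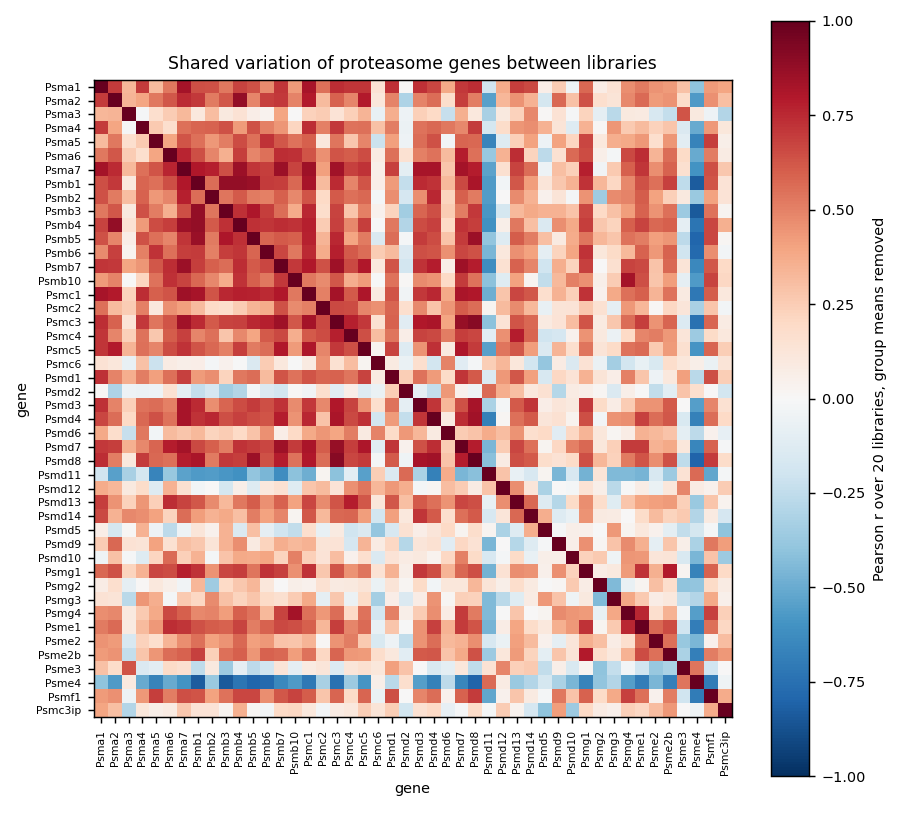
Pearson correlation between the log2 levels of 46 proteasome genes over 20 libraries after group means were removed, ordered by part of the complex, with red for positive and blue for negative r. Ring and regulatory subunits form a mostly red field (median r 0.51), crossed by the blue bands of Psme4 (median r -0.51) and Psmd11 (median r -0.39).

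Counts of some members are uncertain. Psme2 and Psme2b, which encode the beta subunit of the inducible activator and a near-identical copy, had counts that were not whole, and their sum was within 0.01 of a whole number in 5 of the 20 libraries, so reads of the pair were shared. Psme2 held 19.0% to 25.7% of the pair's counts, and neither gene was called in any comparison. Psme2 was at 2.72 to 4.02 CPM in Ncs1-/- hippocampus, 3.04 to 3.82 CPM in wild-type hippocampus, 2.57 to 3.37 CPM in Ncs1-/- cortex and 2.55 to 3.66 CPM in wild-type cortex. Psme2b was at 9.63 to 13.4 CPM over the hippocampus libraries and 9.86 to 12.9 CPM over the cortex libraries. The genes of Psmd1 and Htr2b overlap on opposite strands over 12945 bases, those of Psma3 and 3110056K07Rik over 4264 bases, and Psma4, Psmc3ip and Psme1 overlap an opposite gene over at most 97 bases. Since no source used here gives the strand setting, reads of these opposite pairs cannot be told apart. Psme2b also overlaps 9930111J21Rik1 on the same strand over 262 bases, where a strand setting would not separate the reads.

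Genes that work with the proteasome were described from 5 lists chosen with earlier results of these data known. No gene of any list passed the adjusted threshold between genotypes in either region. In cortex, proteasome partners such as receptors and shuttle factors were lower for 14 of 16 tested genes (median log2 fold change -0.035), with Ubqln4, a shuttle factor, at -0.11 (SE 0.04, edgeR adjusted p 0.253) and Sem1, a small lid subunit, at -0.21 (SE 0.07, edgeR adjusted p 0.258). Ubiquitin and activation genes were lower for 11 of 16 (median -0.054), with Rps27a, a ubiquitin precursor gene, at -0.18 (SE 0.06, edgeR adjusted p 0.243). Regulators of proteasome genes were higher for 8 of 13 (median 0.018), with Maff, a small Maf protein, at 0.93 (SE 0.34, edgeR adjusted p 0.265) and Nfyb, a CCAAT-binding subunit, at -0.075 (SE 0.05, edgeR adjusted p 0.450). The p97 complex, which extracts ubiquitin-tagged proteins from membranes and complexes, was lower for 10 of 14 (median -0.029), with the adaptors Faf2 at -0.10 (SE 0.04) and Ubxn7 at 0.12 (SE 0.05).

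In hippocampus the same lists had values closer to 0. Proteasome partners were lower in Ncs1-/- hippocampus for 10 of 16 genes (median log2 fold change -0.013), with Ecpas, a scaffold that binds the proteasome, at 0.16 (SE 0.08) and Adrm1, a ubiquitin receptor, at -0.12 (SE 0.07). Ubiquitin and activation genes were lower for 10 of 16 (median -0.020), with Ubb at -0.090 (SE 0.06) and Ube2k at 0.052 (SE 0.04). The p97 complex was lower for 10 of 14 (median -0.023), with Derl1 at -0.11 (SE 0.05) and Syvn1 at -0.088 (SE 0.05), both of the degradation pathway of the endoplasmic reticulum. Regulators were higher for 8 of 13 (median 0.014), with Mafg at 0.18 (SE 0.11) and Keap1, which holds Nfe2l2 in check, at -0.072 (SE 0.05), and each of these named genes had an edgeR adjusted p of 0.991. With replicate 1 of Ncs1-/- hippocampus left out, partners were lower for 13 of 16 (median -0.051), ubiquitin and activation genes for 14 of 16 (median -0.045), the p97 complex for 10 of 14 (median -0.063), regulators were higher for 8 of 13 (median 0.018), and 0 genes of these lists were called.

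Genes induced with the immunoproteasome were higher in Ncs1-/- cortex for 11 of 14 (median 0.10), led by Oasl2 (log2 fold change 0.81, SE 0.23, edgeR adjusted p 0.230) and Ifit1 (0.79, SE 0.24, edgeR adjusted p 0.235), and for 8 of 15 in Ncs1-/- hippocampus (median 0.0030), with Psmb8 at 0.17 (SE 0.17) and Oasl2 at 0.14 (SE 0.16). Psmb10, whose product belongs to the same inducible proteasome, had a log2 fold change of -0.23 in cortex, and its partner Psmb8 one of -0.32 (SE 0.25, edgeR adjusted p 0.552) at 0.955 to 1.90 CPM in Ncs1-/- cortex against 0.965 to 2.21 CPM in wild-type cortex.

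Between regions, the lists are set beside all genes, of which 19.2% were called higher and 19.6% lower in Ncs1-/- mice, and 18.8% higher and 20.7% lower in wild type. Proteasome partners were called higher for 1 of 16 and lower for 4 in each genotype. Ubiquitin and activation genes were called higher for 3 of 16 in each genotype, and lower for 0 in Ncs1-/- mice and 1 in wild type. Regulators were called higher for 0 of 13 and lower for 3 in Ncs1-/- mice, and higher for 1 and lower for 2 in wild type, while 7 of 13 in Ncs1-/- mice and 6 of 13 in wild type had positive log2 fold changes. The p97 complex was called higher for 4 of 14 in Ncs1-/- mice and 7 of 14 in wild type, and lower for 0. Genes induced with the immunoproteasome were called higher for 3 of 15 and lower for 2 in Ncs1-/- mice, and higher for 5 of 14 and lower for 2 in wild type. With replicate 1 of Ncs1-/- hippocampus left out, the p97 complex was called higher for 5 of 14 and partners lower for 5 of 16 in Ncs1-/- mice.

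Among these genes 4 are given that were chosen after their values were seen. Nfe2l1, the factor known to raise proteasome genes when the proteasome is inhibited, fell in hippocampus by 0.26 in Ncs1-/- mice (edgeR adjusted p 0.000105) and by 0.28 in wild type (edgeR adjusted p 5.99e-05). Mafg, one of its small Maf partners, fell by 0.34 in Ncs1-/- mice (edgeR adjusted p 0.0180) and by 0.45 in wild type (edgeR adjusted p 0.00382). Uchl5, a deubiquitinase of the regulatory particle, fell by 0.30 in Ncs1-/- mice and 0.31 in wild type. Ubxn4, a p97 adaptor of the endoplasmic reticulum, rose by 0.32 in Ncs1-/- mice and 0.39 in wild type.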

How the data were processed

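RNA sequencing of 20 libraries was deposited as a table of expected counts per gene for each region. Reads were aligned with STAR 2.7.3a to mm10 and handled in Partek, per the submitters' processing notes, and the annotation, strand setting and gene filter are not named there. Between 22.6% and 27.3% of the deposited expected counts were not whole (tolerance 0.001), and all were rounded before testing. The most alike pair of libraries of a group differed by a chi-square of 3.45 per degree of freedom, so each library was counted once.

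Samples were grouped by genotype and region from the labels. Each comparison was fitted over its own 10 libraries, and the interaction over all 20, with edgeR 4.0.16 (R 4.3.3): filterByExpr, TMM scaling, quasi-likelihood test, and Benjamini-Hochberg adjustment over all genes tested, with calls at 0.05. The steps were tested on simulated data. TPM used the exonic length of the longest principal transcript in GENCODE M21. Alternatives were RLE and total-count scaling, DESeq2 1.42.0, limma-voom (limma 3.58.1), other filters, a replicate block and 1 joint fit. Others were removal of a length trend (lowess span 0.3), removal of Rn45s (0.661% to 4.00% of counts) and leaving out each library. In comparisons with hippocampus libraries, those above 100 CPM of Ttr were also left out, and cortex libraries were not screened for Ttr.

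The members and lists were chosen with earlier results of these data known. Named members are those called between genotypes, the 3 with the smallest p in each genotype comparison, up to 6 called per direction in each region comparison, the catalytic, inducible, activator, inhibitor and Psmg genes, and the 3 highest and lowest per length. Of the other lists the 2 genes with the smallest p in each genotype comparison are named, except 1 result that is not reported here.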

Additional observations from a re-analysis of the deposited data

Results flagged for a closer look

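In groups of 5 libraries, a member's highest or lowest CPM stood apart where its gap to the nearest other library exceeded 0.71 of the group's range, Dixon's 95% critical value. This held for 15 of 188 gene and group pairs, and chance gives about 1 in 20. No explanation was tested for any of them.

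In Ncs1-/- hippocampus, 4 of the 15 came from replicate 1, which was the highest library. Psma3 was at 44.00 CPM there (next 39.9 CPM), Psmb2 at 46.8 CPM (next 37.9 CPM), Psmb6 at 56.38 CPM (next 48.0 CPM) and Psmc1 at 118.7 CPM (next 99.5 CPM). Psmd2 was highest in Ncs1-/- hippocampus replicate 3, at 166.4 CPM.

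In wild-type hippocampus, replicate 3 was highest for Psma1 at 59.93 CPM (next 56.8 CPM), Psma7 at 58.9 CPM (next 53.1 CPM) and Psmd3 at 89.68 CPM (next 82.9 CPM). Replicate 4 was lowest for Psmd12, at 59.23 CPM.

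In Ncs1-/- cortex, Psmd4, a ubiquitin receptor, was highest in replicate 1 at 63.16 CPM, and Psme2 was lowest in replicate 2 at 2.567 CPM, a gene whose counts are shared with Psme2b. In wild-type cortex, replicate 5 was lowest for Psma5 at 25.02 CPM (next 26.7 CPM), Psmb4 at 67.65 CPM (next 71.7 CPM) and Psmd8 at 55.66 CPM (next 64.1 CPM), and replicate 4 was lowest for Psmd12 at 54.63 CPM.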

How the results depend on the processing

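Between genotypes in cortex, DESeq2 called 1 member (Psmd3), and leaving out each library gave 0 to 2 calls, the 2 without wild-type replicate 5. DESeq2 called 169 of 14823 genes in all there and edgeR 4. Without wild-type replicate 5, edgeR called 391 genes higher and 172 lower of 14915. The cause was not tested. Between regions in wild type, edgeR called 10 members, total-count scaling called 16 and the fit with a replicate block called 16. Replicate numbers were not taken as pairs, since no label gives them a meaning and same-numbered libraries correlated at 0.085 to 0.37 there and at -0.14 to 0.30 in the other comparisons. In wild type, 5 of 5 libraries correlated best with their own number, a hint of pairing from the data, not the design. The median of the members between regions in Ncs1-/- mice was 0.042 with the length trend removed, against 0.11. Removing that trend also reversed Psmb7 in cortex (0.029) and Psmb6 in hippocampus (0.0016) between genotypes, neither of them called. In the interaction, leaving out each library gave Psmb5 -0.035 to 0.097 and Psme4 -0.11 to 0.028. With 5 libraries a group, the median SE of a member between genotypes in cortex was 0.050, against a median difference of -0.058, and Psmb10 at -0.23 was not called by edgeR either.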
